A study of Mus musculus with 12 samples.

Results

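The effect of a high-fat diet on the liver transcriptome was examined in mice labelled as Lix1l knockouts. Livers of 3 animals labelled knockout and fed a high-fat diet (HFD; animals 1, 5 and 6) were compared with livers of 3 animals labelled knockout and fed a low-fat diet (LFD; animals 2, 4 and 5). All genes with at least 1 TPM (transcripts per 1000000, a level that allows for transcript length and is a share of its library) in at least 3 of these 6 libraries were included, which gave 11212 of the 56107 genes in the deposited table. A further 13463 genes were above 0 TPM in at least 1 of the 6 libraries and stayed under that limit, and 31432 were listed at 0 TPM in all 6. The limit was crossed narrowly by 261 genes, whose third-highest value was 1 to 1.1 TPM, and missed narrowly by 264 genes, whose third-highest value was 0.9 TPM to just under 1 TPM.

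The series holds 12 liver RNA-seq libraries, 3 for each combination of genotype (Lix1l knockout or wild-type littermate, WT) and diet. Feeding began at 6 weeks of age and lasted 12 weeks, and its stated purpose was to learn how LIX1L bears on non-alcoholic steatohepatitis. The labels give neither the deleted part of Lix1l nor the strain, the sex, or the composition of the diets, and the 2 knockout groups differ in diet as their only labelled difference. Each library is a numbered animal, and number 5 occurs on both diets.

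The targeted gene did not check the labels. Lix1l had 1.92, 0.150 and 1.38 TPM in HFD livers labelled knockout, against 0.270, 0.210 and 0.780 TPM in LFD livers labelled knockout. In WT livers it had 1.18, 1.73 and 0.9 TPM on HFD, against 0.720, 0.580 and 1.08 TPM on LFD. Between diets, the mean difference in livers labelled knockout was 0.730 TPM (exact 2-sided permutation p = 0.4) and did not exceed the spread between animals. With 3 against 3 animals the smallest possible p was 0.1. LFD livers labelled knockout lay below WT HFD livers, but on each diet the range of livers labelled knockout overlapped that of WT livers. For that reason the animals are called livers labelled knockout throughout, and below "HFD livers" and "LFD livers" without a genotype are livers labelled knockout, with values in the order of animals 1, 5 and 6 on HFD and 2, 4 and 5 on LFD.

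Hepatocytes make most of the liver's RNA. They secrete plasma proteins, among them the acute phase proteins that interleukin-6 and interleukin-1 raise during inflammation, and they run gluconeogenesis, the urea cycle, bile acid synthesis and drug oxidation. A diet rich in fat is known in mouse liver to shift lipid handling, insulin-regulated genes and clock output, and a fatty liver can activate the unfolded protein response and interferon-stimulated genes. Whole liver was sequenced, so fewer cells of a type and less RNA per cell cannot be told apart.

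The 6 libraries differed in composition along the same line as the diets. The 15 mitochondrially encoded genes held 22.55%, 12.61% and 10.89% of all TPM in HFD livers, against 7.988%, 8.772% and 7.533% in LFD livers. The part of this difference in the results was examined only by refitting with mitochondrial genes left out of the total, and its source was not tested. HFD animal 1, with the highest mitochondrial share, also had the fewest genes at 1 TPM or more (10265, against 10924 to 11353 in the other 5 livers) and the lowest weight when libraries were weighted by their residual spread. The first principal component of the 6 libraries separated the diets and held 55% of the variance. Because TPM is a share of the library, values of all genes depend on the largest ones, and the median change over all genes was -0.23 on the log2 scale as deposited, 0.02 after median-ratio scaling, -0.05 after quantile normalization and -0.06 with mitochondrial genes left out of the total.

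With limma on log2(TPM + 1) over the 4 groups and an adjusted p below 0.05, 819 genes rose in HFD livers (7.3% of those tested) and 2079 fell (18.5%), together 2898 (25.8%). Among them, 423 rose and 950 fell by more than 1 on the log2 scale, and 97 rose and 95 fell by more than 2. The split between rises and falls depended on scaling, since 28.3% of calls were rises as deposited and 51.3% after median-ratio scaling, 44.1% after quantile normalization and 45.8% without mitochondrial genes. A core of 802 rises and 1543 falls was called in the same direction under all 4 scalings. The values of HFD and LFD livers did not overlap for 39.7% of genes (11.3% higher and 28.4% lower on HFD). The largest rises and falls named below were picked for groups that did not overlap, and list members for a low p. Separate groups in those genes therefore follow from the choice and add no support to their tests. When only the 6 libraries were fitted, with 4 residual degrees of freedom in place of 8, 992 genes were called (350 rises and 642 falls).

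**Figure D1:**
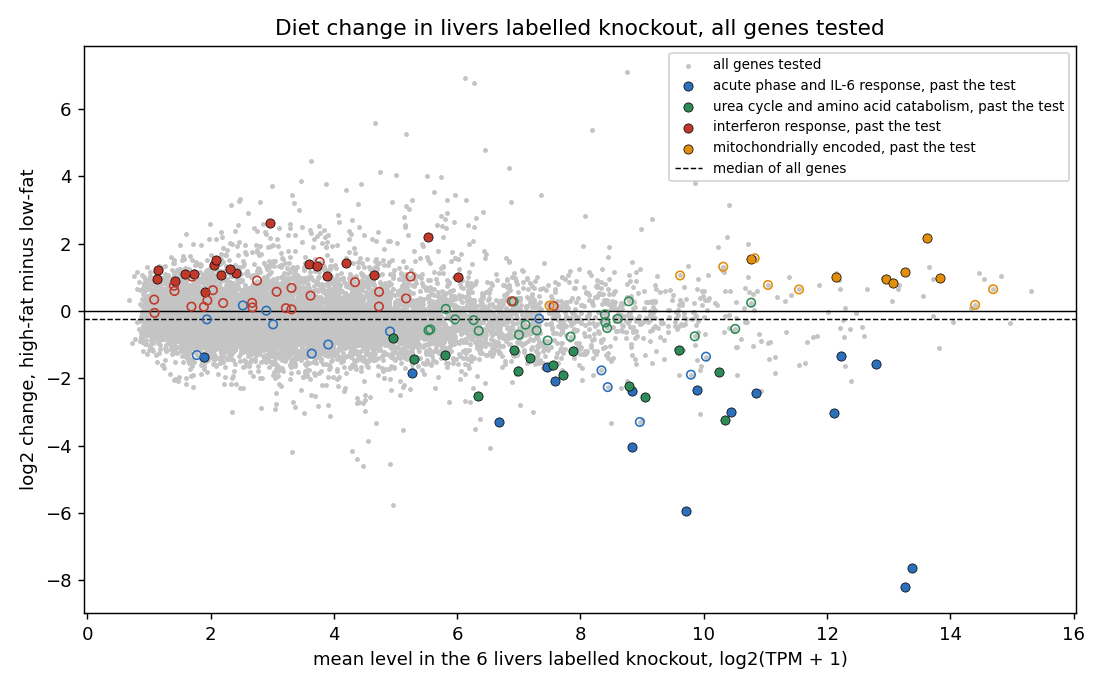
Change on HFD (log2 of TPM + 1, HFD minus LFD, vertical axis) in livers labelled knockout for each of the 11212 genes against its mean level in the same 6 livers (horizontal axis). Grey points are all genes, of which 819 rose and 2079 fell; coloured points are members of 4 lists (acute phase, amino acid catabolism, interferon response and mitochondrially encoded), filled where they passed the test and open where they did not, and the dashed line is the median change of -0.23.

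Among the gene lists plotted, the acute phase genes had the lowest median change in HFD livers as deposited, and the mitochondrially encoded and interferon-stimulated genes had the highest. The lists below were chosen with earlier results of these data known, so their counts describe these libraries, and each list is set beside the shares and the median of all genes given above.

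**Figure D2:**
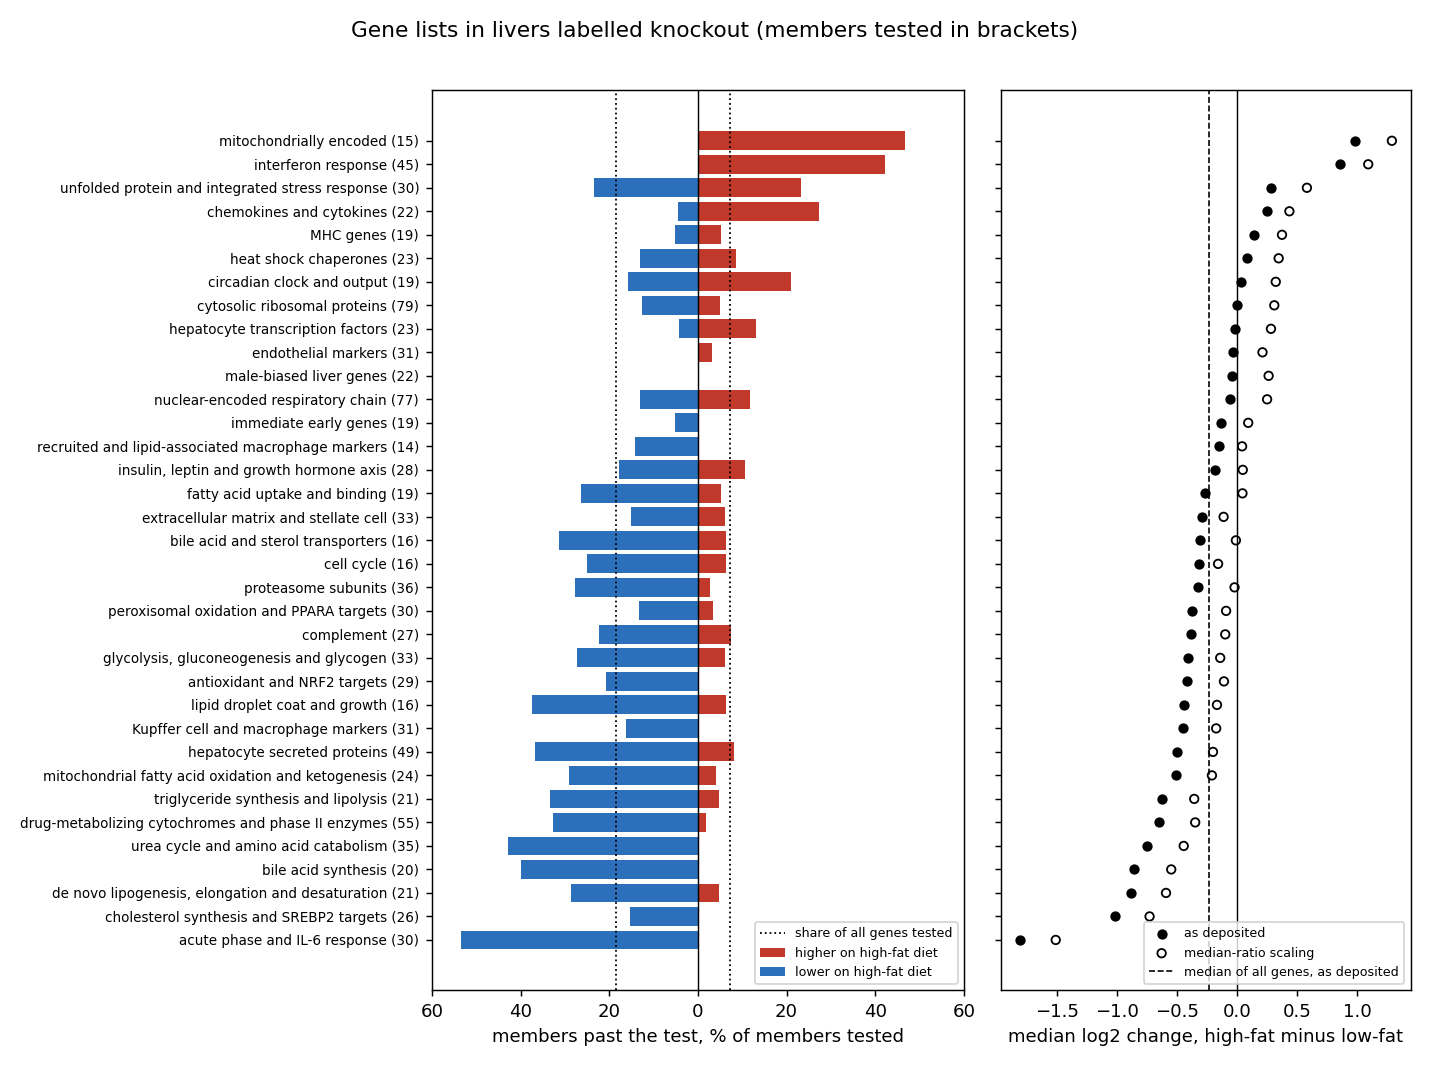
Gene lists with at least 14 tested members, with the percentage of members that rose or fell in HFD livers and their median change on the log2 scale, HFD minus LFD. Dotted lines mark the shares over all genes (7.3% and 18.5%), and filled and open circles are medians as deposited and after median-ratio scaling: acute phase genes lie lowest (-1.81 and -1.51) and the 14-member or longer lists with medians above 0.5 as deposited are interferon response (0.86) and mitochondrially encoded genes (0.98).

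Acute phase genes were far lower in HFD livers than in LFD livers. Of 30 tested members of the acute phase and IL-6 response list, 0 rose and 16 fell, with a median change of -1.81. Their summed level was 5974, 13530 and 9732 TPM in HFD livers, against 40740, 49553 and 159957 TPM in LFD livers. In WT livers it was 13969.8 to 16012 TPM on HFD and 11405 to 13655 TPM on LFD, so the 3 LFD livers labelled knockout stood above all 9 other livers.

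Saa1 and Saa2 encode the acute phase serum amyloid A proteins, lipoprotein-bound products of inflamed liver. Saa1 (chr7:46740497-46742980, minus strand) had 23.3, 280.4 and 104 TPM in HFD livers, against 10533, 13158 and 39768 TPM in LFD livers. Its change was -7.62 ± 0.79 (log2, SE, n = 3 each, adjusted p = 0.000362), and no HFD liver came near the lowest LFD liver. Saa2 (chr7:46751790-46754313, plus strand) had 12.4, 129 and 51.8 TPM in HFD livers, against 6241, 8689.7 and 43736 TPM in LFD livers. The groups were again far apart, with a change of -8.21 ± 0.94 (adjusted p = 0.000681) and LFD animal 5 the highest of the 12 livers for both genes. Between 0.44 and 0.47 of the short sequence words of Saa1 and Saa2 occur in another gene, so reads may have been shared between the pair.

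In WT livers the same genes ran the other way. Saa1 had 261, 543 and 287 TPM in WT HFD livers, against 95.2, 137 and 39.3 TPM in WT LFD livers, and the diet change in livers labelled knockout minus that in WT livers was -9.71 ± 1.12 (adjusted p = 0.00306). Saa2 had 157, 362 and 172 TPM in WT HFD livers, against 20, 90.8 and 10.9 TPM in WT LFD livers, with a difference of -11.13 ± 1.33 (adjusted p = 0.00316). The HFD livers labelled knockout thus had Saa1 levels below or within the range of WT HFD livers, while the LFD livers labelled knockout were above every WT liver.

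Saa3, the serum amyloid also made by macrophages, had 11.2, 51.5 and 8.85 TPM in HFD livers, against 165, 193 and 181 TPM in LFD livers (-3.29 ± 0.64, adjusted p = 0.00594). Orm2, an orosomucoid that binds drugs and steroids in plasma, had 12.4, 68.8 and 16.0 TPM in HFD livers, against 981, 1629 and 2311 TPM in LFD livers (-5.94 ± 0.79, adjusted p = 0.0015). Neither gene's groups overlapped, and HFD animal 5 was the highest of its group for both. The fibrinogen chains, which form the clot, fell together. Fga (alpha chain) had 126, 447 and 433 TPM in HFD livers, against 2076, 1744 and 3488 TPM in LFD livers (-3.00 ± 0.45, adjusted p = 0.00249). Fgb (beta chain) changed by -2.35 ± 0.37 and Fgg (gamma chain) by -2.42 ± 0.39, with adjusted p of 0.00275 and 0.00315. Hpx, the plasma carrier of free heme, had 1325, 3437 and 1693 TPM in HFD livers, against 6078, 7782 and 11953 TPM in LFD livers (-2.06 ± 0.34, adjusted p = 0.00317).

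Lcn2, an iron-siderophore binding protein made by inflamed hepatocytes and by neutrophils, was added after its values were seen. It had 3.28, 54.0 and 7.38 TPM in HFD livers, against 42.0, 76.3 and 2569.7 TPM in LFD livers (-4.03 ± 1.34, adjusted p = 0.0455). The groups overlapped and LFD animal 5 alone set the high mean. The fall was called under 5 of 23 alternatives.

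Neutrophil markers overlapped between diets, and LFD animal 2 was the lowest of the 6 livers. Their summed level (14 genes, of which S100a8 and S100a9 were tested) was 9.81, 11.6 and 9.80 TPM in HFD livers, against 5.72, 80.3 and 33.3 TPM in LFD livers. None of the 14 was at 0 in all 6 livers, and neither tested gene passed. Their part in the acute phase result was not tested. Without any 1 of the 6 libraries the median of the acute phase list stayed between -2.28 and -1.12, and 11 members fell without HFD animal 1 and 10 in the 6 libraries alone.

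**Figure D3:**
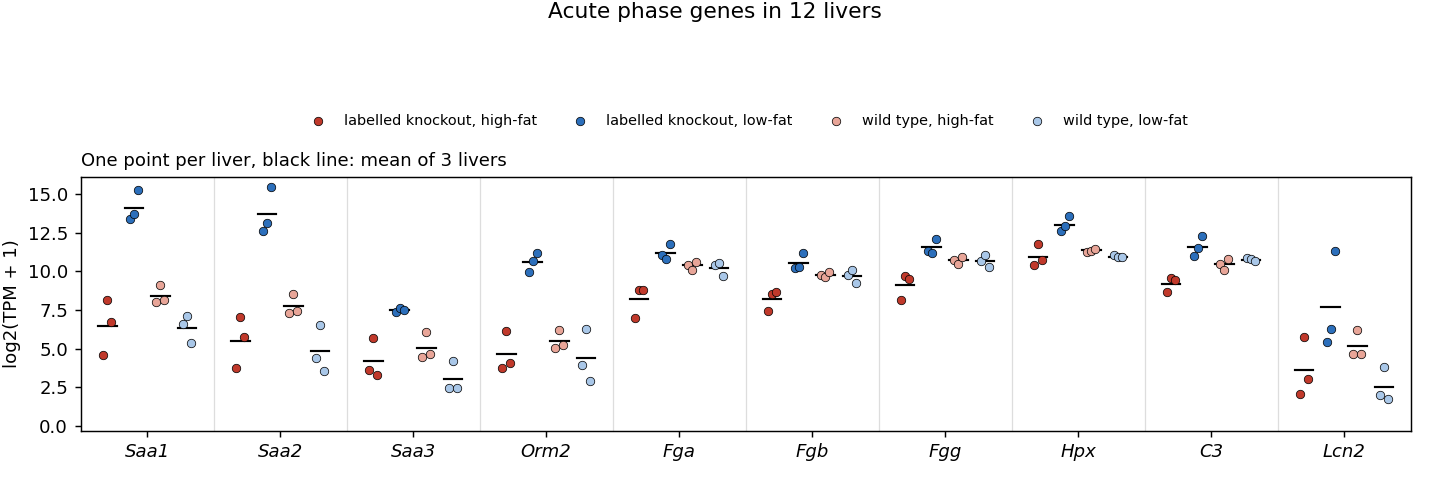
Levels of acute phase genes (log2 of TPM + 1, vertical axes) in single livers, in columns from left to right for HFD and LFD livers labelled knockout and HFD and LFD WT livers; points are animals and black lines the mean of the log2 values of 3 livers. The 3 LFD livers labelled knockout lie above the other 9 for Saa1 (10533 to 39768 TPM) and Saa2 (6241 to 43736 TPM).

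Saa1 and Saa2 had the largest falls described above. Fga fell and held several of the motifs searched for, as did Fgb with the same motifs, while Steap4, not among the falls, held more. The bases before the start sites of Saa1, Saa2 and Fga are shown. They are 250 bases upstream of the RefSeq start on GRCm38.p6, written 5′ to 3′ on the gene's own strand, with capitals for the letters that match TTGCNNAA (the core read by C/EBP factors) on either strand and, in Fga, also CTGGGA and TTCNNNGAA (motifs read by STAT3). The motifs were picked with these results known.
Saa1, chr7:46742981-46743230, minus strand: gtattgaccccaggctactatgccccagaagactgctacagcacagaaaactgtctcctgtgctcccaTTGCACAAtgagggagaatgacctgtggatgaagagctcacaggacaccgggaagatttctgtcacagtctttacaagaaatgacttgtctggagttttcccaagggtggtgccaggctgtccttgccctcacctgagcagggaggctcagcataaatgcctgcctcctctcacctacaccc
Saa2, chr7:46751583-46751832, plus strand: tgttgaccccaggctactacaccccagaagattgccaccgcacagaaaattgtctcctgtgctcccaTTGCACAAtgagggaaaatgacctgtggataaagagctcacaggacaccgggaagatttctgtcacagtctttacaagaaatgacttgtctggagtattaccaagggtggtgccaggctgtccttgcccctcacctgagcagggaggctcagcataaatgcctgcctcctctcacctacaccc
Fga, chr3:83025903-83026152, plus strand: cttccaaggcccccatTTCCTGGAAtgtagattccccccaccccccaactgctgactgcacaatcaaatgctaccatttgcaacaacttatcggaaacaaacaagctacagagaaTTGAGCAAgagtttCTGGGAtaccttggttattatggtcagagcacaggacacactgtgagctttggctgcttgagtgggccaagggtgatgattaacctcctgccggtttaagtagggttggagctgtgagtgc

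In Saa1 the match lay 182 to 175 bases before the start and in Saa2 183 to 176 bases before it. In Fga the TTCNNNGAA match lay 234 to 226 bases, the TTGCNNAA match 135 to 128 bases and the CTGGGA match 121 to 116 bases before the start, with no overlap between them. A promoter was found for 22 of the 30 tested members (23 promoters) and for 10 of the 16 that fell. TTGCNNAA was present in 12 of those 23 promoters and in 7 of the 10 (Fga, Fgb, Lcn2, Orm2, Saa1, Saa2 and Saa3), beside 9.56% of 32851 promoters of the same length. TTCNNNGAA was in 5 of the 23 and 2 of the 10 (7.02% of all), CTGGGA in 7 of the 23 and 4 of the 10 (27% of all), and GGGNNTTTCC, a form of the site read by NF-kB, in 2 of the 23 and 0 of the 10 (1.41% of all). These are matches of letters, not shown binding sites.

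Complement genes fell in a share near that of all genes (18.5%). Of 27 tested complement genes 2 rose (C4a and Cfd) and 6 fell (median -0.38), with 3 falls when LFD animal 5 was left out and a median of -0.08 without HFD animal 1 and -0.10 after median-ratio scaling. C3, the central complement component, had 404, 741 and 686 TPM in HFD livers, against 2032, 2904 and 4945 TPM in LFD livers. The groups were apart, with a change of -2.38 ± 0.33 (adjusted p = 0.00169). C4a, a C4 copy whose reads can be shared with C4b (0.43 of its words occur elsewhere), rose instead: it had 99.7, 89.1 and 64.1 TPM in HFD livers, against 15.7, 5.50 and 25.7 TPM in LFD livers (2.56 ± 0.42, adjusted p = 0.0033).

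Of 49 hepatocyte secreted proteins 4 rose (Apoc1, Apoc3, Apoc4 and Igf1) and 18 fell (median -0.50). Ambp, the precursor of alpha-1-microglobulin and bikunin, had 1077, 2083 and 1905 TPM in HFD livers, against 4497, 5211 and 4473 TPM in LFD livers (-1.54 ± 0.25, adjusted p = 0.0033). Apom, an HDL apolipoprotein that carries sphingosine 1-phosphate, had 21.8, 25.3 and 55.2 TPM in HFD livers, against 248, 232 and 192 TPM in LFD livers (-2.79 ± 0.38, adjusted p = 0.0015). Some small apolipoproteins of triglyceride-rich particles went the other way, and these were chosen after their values were seen. Apoc3, an inhibitor of lipoprotein lipase, had 11668, 9870.0 and 8959 TPM in HFD livers, against 5741, 5169.8 and 4470.2 TPM in LFD livers (0.99 ± 0.24, adjusted p = 0.0144). Apoc1 changed by 1.12 ± 0.32 (adjusted p = 0.0251) and Apoc4 by 0.78 ± 0.21 (adjusted p = 0.0209), and for all 3 genes every HFD liver was above every LFD liver. The rises of this list numbered 1 without LFD animal 2 or LFD animal 5 and 2 without HFD animal 1 or HFD animal 5.

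Interferon-stimulated genes were higher in HFD livers. Of 45 tested members of the interferon response list 19 rose and 0 fell, with a median change of 0.86. The number of rises was 31 without HFD animal 1, 12 without HFD animal 5 and 11 without LFD animal 2, and 5 when only the 6 libraries were fitted. The summed level was 531, 1244 and 1106 TPM in HFD livers, against 656, 528 and 558 TPM in LFD livers, with HFD animal 1 within the LFD range.

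Ifit1, an RNA-binding effector that blocks translation of foreign RNA, had 9.63, 16.4 and 11.2 TPM in HFD livers, against 1.34, 0.720 and 1.43 TPM in LFD livers. It averaged 12.4 ± 3.57 TPM in HFD livers and 1.16 ± 0.387 TPM in LFD livers (SD, n = 3 each), a change of 2.62 ± 0.24 (adjusted p = 0.000149). The groups did not overlap, and all 3 LFD livers were also below the WT LFD livers (3.43 to 4.18 TPM). Isg15, a ubiquitin-like protein that is attached to newly made proteins, had 39.6, 88.1 and 97.2 TPM in HFD livers, against 21.1, 7.88 and 17.7 TPM in LFD livers (2.20 ± 0.38, adjusted p = 0.00361). Stat2, part of the factor that type I interferon activates, had 16.9, 30.7 and 30.1 TPM in HFD livers, against 8.84, 6.41 and 11.2 TPM in LFD livers (1.44 ± 0.24, adjusted p = 0.00342). For both genes the groups were apart, with HFD animal 1 the lowest of its group.

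The guanylate-binding proteins, GTPases that attack intracellular pathogens, included large rises. Gbp11, which is not on the list, had 21.2, 14.8 and 15.9 TPM in HFD livers, against 0.570, 0.550 and 0.860 TPM in LFD livers (3.45 ± 0.20, adjusted p = 3.52e-06). Gbp3 had 3.04, 7.58 and 5.62 TPM in HFD livers, against 0.890, 1.04 and 1.49 TPM in LFD livers (1.53 ± 0.26, adjusted p = 0.00346). Gbp4 changed by 0.96 ± 0.20 (adjusted p = 0.00795) and Mx1, a dynamin-like antiviral GTPase, by 1.22 ± 0.23 (adjusted p = 0.00519), both from low levels of at most 3.01 TPM. All 4 had every HFD liver above every LFD liver.

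The interferon list was also higher on HFD in WT livers, with a median change of 0.84 over the same 45 members. The difference between the genotypes' diet changes passed for 4 of the 45, 3 higher in livers labelled knockout (Mx1, Stat2 and Gbp8) and 1 lower (Gbp6, uncertain since 0.74 of its words occur in another gene). Gbp11 differed by 2.36 ± 0.28 (adjusted p = 0.00316), Mx1 by 1.36 ± 0.32 (adjusted p = 0.0286) and Stat2 by 1.26 ± 0.34 (adjusted p = 0.0393), while Isg15 differed by 0.93 ± 0.53 and Gbp3 by 0.05 ± 0.36 without passing (adjusted p of 0.234 and 0.931). The count of differences over all genes was 337 higher (3.01%) and 949 lower (8.46%).

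Promoters of Ifit1 and Isg15 are shown for the interferon-stimulated response element, whose core GAAANNGAAA is in capitals on either strand, as 250 bases before the RefSeq start on GRCm38.p6.
Ifit1, chr19:34640639-34640888, plus strand: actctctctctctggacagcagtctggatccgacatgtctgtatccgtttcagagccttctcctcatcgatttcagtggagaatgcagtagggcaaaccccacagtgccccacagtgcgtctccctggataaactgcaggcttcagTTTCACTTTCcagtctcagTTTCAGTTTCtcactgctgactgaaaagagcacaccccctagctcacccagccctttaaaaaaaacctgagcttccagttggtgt
Isg15, chr4:156200819-156201068, minus strand: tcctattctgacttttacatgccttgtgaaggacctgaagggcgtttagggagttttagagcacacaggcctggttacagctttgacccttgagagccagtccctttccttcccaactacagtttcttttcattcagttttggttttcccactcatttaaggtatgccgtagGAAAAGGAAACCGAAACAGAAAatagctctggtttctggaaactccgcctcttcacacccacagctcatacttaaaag

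Ifit1 had 2 separate matches, 104 to 95 and 85 to 76 bases before the start, and Isg15 had 3 that overlap each other, from 78 to 57 bases before the start. A promoter was found for 30 of the 45 tested members, and the core was in 17 of their 36 promoters. Among the rises, 12 of 19 had a promoter and the core was in 10 of their 16 promoters, beside 2.98% of all 32851.

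Chemokines that bring in T cells were higher too. Of 22 tested chemokines and cytokines 6 rose and 1, the B cell attractant Cxcl13, fell, with a median change of 0.25. The number of rises was 0 without HFD animal 5, 1 without LFD animal 5 and 3 without LFD animal 2, and 0 when only the 6 libraries were fitted. Cxcl9, Cxcl10 and Cxcl11 encode the ligands of CXCR3, the receptor of activated T cells. The rise of Cxcl10 was also counted in the interferon response list, so the 2 lists are not separate results for it. Cxcl10 had 3.04, 6.41 and 8.87 TPM in HFD livers, against 1.38, 2.84 and 1.41 TPM in LFD livers (1.25 ± 0.38, adjusted p = 0.032). Cxcl9 changed by 1.05 ± 0.31 (adjusted p = 0.03) and Cxcl11 by 0.88 ± 0.22 (adjusted p = 0.0165), and none of these 3 overlapped between diets. Ccl5, which T and NK cells secrete, had 6.70, 14.8 and 9.20 TPM in HFD livers, against 2.48, 5.45 and 1.56 TPM in LFD livers (1.48 ± 0.39, adjusted p = 0.019). Csf1, the growth factor of macrophages, changed by 0.57 ± 0.15 (adjusted p = 0.0185). Ccl19, a CCR7 ligand, changed by 0.79 ± 0.21 (adjusted p = 0.0188), with 0.59 of its words shared with another gene, so its level is uncertain.

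Some T and NK cell markers were also higher, but the lists share members. Ccl5 is one of the chemokine rises given above, and its level is part of the sum below, so Trbc1 is the only rise not already counted. Of 21 markers 3 reached the level limit, of which Ccl5 and Trbc1 rose and Trbc2 did not pass, and the sum over the list was 16.1, 33.0 and 18.8 TPM in HFD livers, against 8.86, 14.6 and 6.02 TPM in LFD livers. Trbc1, a T cell receptor constant region, had 2.37, 2.43 and 1.49 TPM in HFD livers, against 0.780, 0.720 and 0.2 TPM in LFD livers (0.99 ± 0.24, adjusted p = 0.0145). The 2 rises became 0 without LFD animal 5 and 1 without HFD animal 5 or LFD animal 2. Their part in the chemokine and interferon results was not tested.

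Genes of the unfolded protein and integrated stress response moved both ways. Of 30 tested members of the unfolded protein and integrated stress response list 7 rose (Syvn1, Creld2, Manf, Ddit3, Hspa5, Hsp90b1 and Pdia3) and 7 fell (Asns, Atf5, Atf6, Trib3, Sesn2, Selenos and the chaperone Canx), with a median change of 0.28. The number of rises was 4 without HFD animal 5, and the number of falls was 4 without HFD animal 1 and 3 without LFD animal 5. Syvn1, the ubiquitin ligase HRD1 that clears misfolded proteins from the endoplasmic reticulum, had 62.4, 109 and 113 TPM in HFD livers, against 17.3, 14.5 and 15.4 TPM in LFD livers. The groups were far apart, with a change of 2.47 ± 0.25 (adjusted p = 0.000362). Creld2, a secreted product of endoplasmic reticulum stress, had 71.9, 177 and 209 TPM in HFD livers, against 16.9, 19.3 and 15.6 TPM in LFD livers (2.94 ± 0.63, adjusted p = 0.00839). Manf, a survival factor of the same compartment, had 229, 458 and 565 TPM in HFD livers, against 140.4, 89.1 and 86.3 TPM in LFD livers (1.92 ± 0.45, adjusted p = 0.012).

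Ddit3, the transcription factor CHOP of the stress response, had 21.8, 52.6 and 43.5 TPM in HFD livers, against 8.09, 11.8 and 4.55 TPM in LFD livers (2.13 ± 0.41, adjusted p = 0.00587). No HFD liver overlapped the LFD livers for Creld2, Manf or Ddit3, and HFD animal 1 was the lowest HFD liver for each. Hspa5, the chaperone BiP, was chosen after its values were seen. It had 217, 595 and 806 TPM in HFD livers, against 182, 127 and 164 TPM in LFD livers (1.59 ± 0.47, adjusted p = 0.0296), and was called under 16 of 23 alternatives. Among 23 heat shock chaperones 2 rose (Hspa8 and Hsp90aa1) and 3 fell (the mitochondrial Hspa9 and Hspd1, and Dnaja2), with a median of 0.08. Hsp90aa1 and Hspd1 are uncertain (0.51 and 0.53 of their words occur elsewhere), and the falls numbered 1 without HFD animal 1, HFD animal 5 or LFD animal 5. Among them was Hspa8, the constitutive heat shock cognate protein, at 982, 1240.3 and 1446 TPM in HFD livers, against 386, 600.1 and 464 TPM in LFD livers (1.34 ± 0.26, adjusted p = 0.00581).

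The falls with the lowest p were those of Asns and Atf5. Asns, asparagine synthetase and a target of ATF4, had 0.460, 0.5 and 1.09 TPM in HFD livers, against 3.68, 3.13 and 4.34 TPM in LFD livers (-1.5 ± 0.25, adjusted p = 0.00339). Atf5, a transcription factor of the same response, had 80.1, 105 and 146 TPM in HFD livers, against 186, 265 and 278 TPM in LFD livers (-1.15 ± 0.26, adjusted p = 0.00949). Neither overlapped. The LFD livers labelled knockout had more Asns than any of the 6 WT livers (0.270 to 1.40 TPM).

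Against WT livers, Syvn1 differed in its diet change by 1.83 ± 0.36 (adjusted p = 0.0186), with 14.9, 13.5 and 22.6 TPM in WT HFD livers and 11.8, 8.83 and 10.3 TPM in WT LFD livers. Creld2 and Ddit3 differed by 2.44 ± 0.89 and 1.60 ± 0.58 and did not pass (adjusted p of 0.0824 and 0.0846).

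Promoters of Creld2 and Syvn1 are shown for the endoplasmic reticulum stress element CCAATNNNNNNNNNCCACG, which is in capitals on either strand, again as 250 bases before the RefSeq start on GRCm38.p6.
Creld2, chr15:88819396-88819645, plus strand: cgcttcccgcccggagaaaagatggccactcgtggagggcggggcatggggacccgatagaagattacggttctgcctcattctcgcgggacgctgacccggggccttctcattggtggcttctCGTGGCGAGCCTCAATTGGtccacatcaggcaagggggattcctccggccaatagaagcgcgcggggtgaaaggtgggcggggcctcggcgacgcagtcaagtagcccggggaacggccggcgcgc
Syvn1, chr19:6046326-6046575, plus strand: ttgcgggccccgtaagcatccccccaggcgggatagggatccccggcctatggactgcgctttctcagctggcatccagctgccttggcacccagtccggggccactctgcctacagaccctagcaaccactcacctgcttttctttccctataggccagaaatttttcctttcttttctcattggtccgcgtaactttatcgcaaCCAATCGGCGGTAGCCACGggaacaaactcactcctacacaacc

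The match lay 126 to 108 bases before the start in Creld2 and 44 to 26 bases before it in Syvn1. A promoter was found for 27 of the 30 tested members (28 promoters), and 8 promoters held the element (Calr, Canx, Creld2, Dnajc3, Hsp90b1, Hspa5, Pdia6 and Syvn1). It was in 4 of 6 promoters of the genes that rose and in 1 of 7 promoters of those that fell, beside 0.113% of all 32851.

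**Figure D4:**
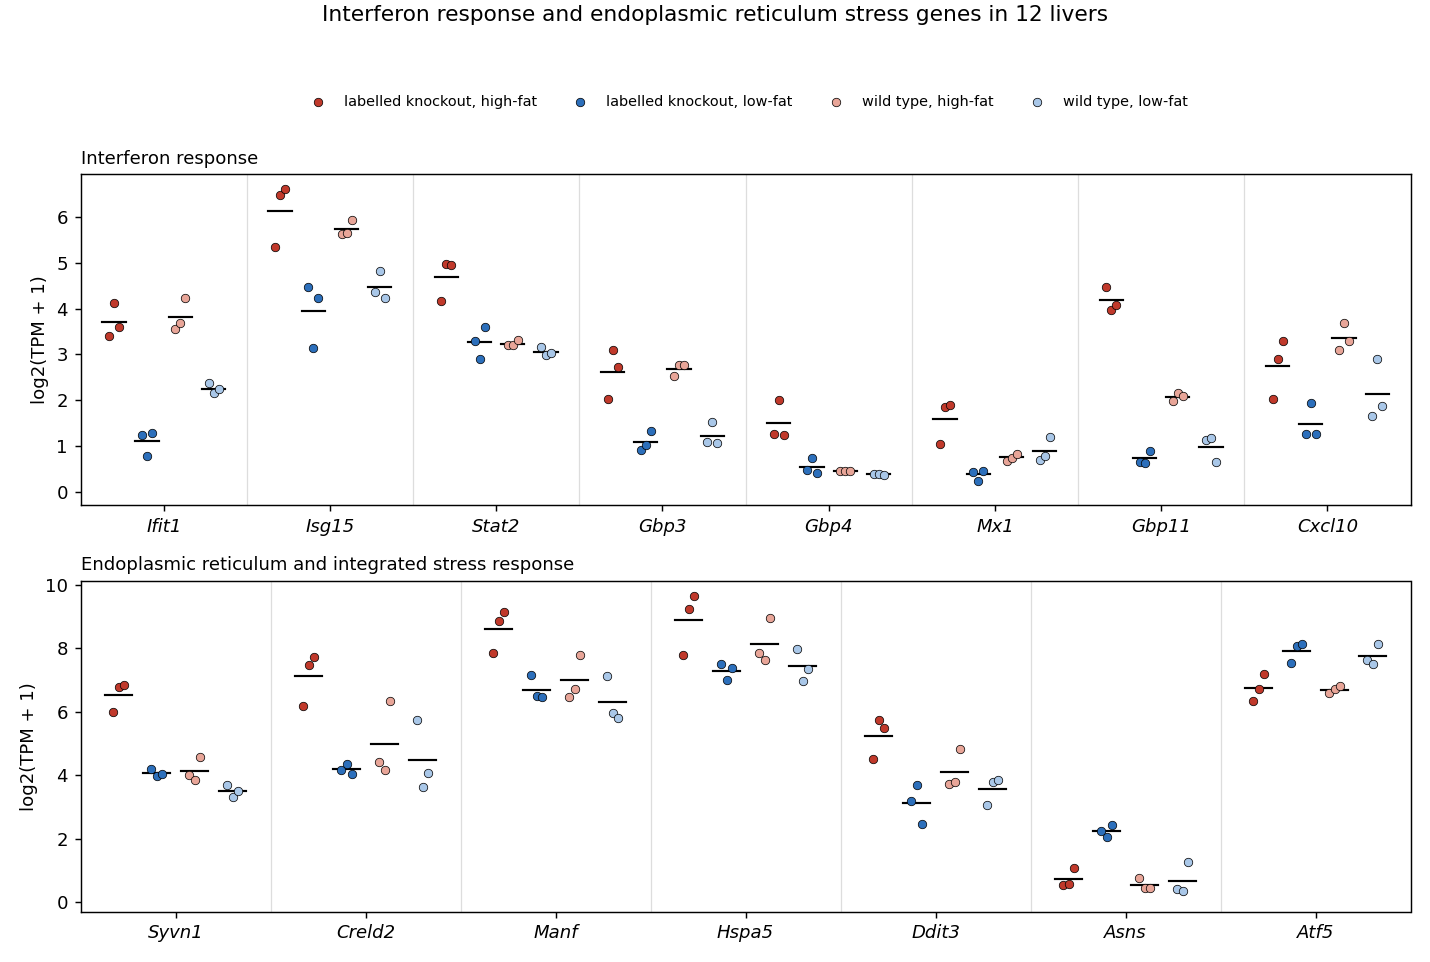
Levels of interferon-stimulated and endoplasmic reticulum stress genes (log2 of TPM + 1, vertical axes) in single livers, in columns from left to right for HFD and LFD livers labelled knockout and HFD and LFD WT livers; points are animals and black lines the mean of the log2 values of 3 livers. Ifit1 and Isg15 are higher on HFD in both genotypes, while the 3 HFD livers labelled knockout stand above the other 9 for Syvn1 (62.4 to 113 TPM).

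Many transcripts of amino acid catabolism were lower in HFD livers. Of 35 tested genes of the urea cycle and amino acid catabolism 0 rose and 15 fell, with a median change of -0.75. Their summed level was 6654, 8661 and 10490.4 TPM in HFD livers, against 19429, 12851 and 18524 TPM in LFD livers. Gnmt, glycine N-methyltransferase and the regulator of liver S-adenosylmethionine, had 87.0, 283 and 549 TPM in HFD livers, against 2957, 2029 and 1893 TPM in LFD livers (-3.23 ± 0.55, adjusted p = 0.00346). Aldh4a1, which completes proline breakdown in mitochondria and is not on the list, had 0.380, 0.890 and 2.57 TPM in HFD livers, against 86.0, 18.9 and 66.7 TPM in LFD livers (-4.54 ± 0.64, adjusted p = 0.00178). Both were widely apart, with HFD animal 1 the lowest of all livers.

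Transcripts of tryptophan, tyrosine and urea cycle enzymes were also lower. Tdo2, which opens the tryptophan ring, had 71.2, 164 and 272 TPM in HFD livers, against 647, 905 and 1095 TPM in LFD livers (-2.54 ± 0.40, adjusted p = 0.00285). Kynu, the kynureninase of the same pathway, changed by -1.41 ± 0.27 (adjusted p = 0.00557). Tat, tyrosine aminotransferase, changed by -2.21 ± 0.42 (adjusted p = 0.00522), and Ass1, the urea cycle's argininosuccinate synthase, by -1.80 ± 0.31 (adjusted p = 0.0037). Got1, the cytosolic aspartate aminotransferase, had 11.3, 25.1 and 30.2 TPM in HFD livers, against 139, 64.5 and 209 TPM in LFD livers (-2.53 ± 0.42, adjusted p = 0.0033). Got1 was lower on HFD in WT livers as well, with 48.6, 39.2 and 47.6 TPM in WT HFD livers and 172, 203 and 285 TPM in WT LFD livers, and the difference between genotypes did not pass (-0.30 ± 0.59, adjusted p = 0.754). Gnmt, Aldh4a1, Tdo2 and Tat did differ between genotypes, by -2.95 ± 0.77, -5.54 ± 0.91, -2.53 ± 0.56 and -2.04 ± 0.59 (adjusted p of 0.0359, 0.0148, 0.0246 and 0.0462).

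Bile acid synthesis genes were lower in HFD livers, though the rate-limiting enzyme did not pass. Of 20 tested members 0 rose and 8 fell (median -0.86). Cyp39a1, an oxysterol hydroxylase, had 0.680, 0.880 and 0.920 TPM in HFD livers, against 5.50, 7.37 and 9.02 TPM in LFD livers (-2.16 ± 0.25, adjusted p = 0.000817). Cyp8b1, which sets the share of cholic acid, had 54.0, 63.7 and 99.3 TPM in HFD livers, against 232, 228 and 163 TPM in LFD livers (-1.54 ± 0.32, adjusted p = 0.00779). Slc27a5, the bile acid coenzyme A ligase, changed by -1.18 ± 0.23 (adjusted p = 0.00627) and Scp2, a peroxisomal sterol carrier and thiolase, by -1.08 ± 0.24 (adjusted p = 0.00989). None of these 4 overlapped. Cyp7a1, the rate-limiting enzyme, was chosen after its values were seen: it had 8.72, 17.1 and 27.9 TPM in HFD livers, against 3.30, 5.90 and 25.1 TPM in LFD livers, overlapped and did not pass (0.90 ± 0.61, adjusted p = 0.283). Among 16 transporters of bile acids and sterols 1 rose (Slc51a, a basolateral exporter of bile acids) and 5 fell (Slco1a4, Abcc3, Abcg8, Atp8b1 and Scarb1), with a median of -0.31. The falls numbered 1 without HFD animal 1 and 3 without LFD animal 2 or LFD animal 5.

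Of 55 tested drug-metabolizing cytochromes and phase II enzymes 1 rose and 18 fell (median -0.65), and the falls numbered 6 without HFD animal 1 and 10 without LFD animal 2. Cyp3a11, the main drug-oxidizing cytochrome of its subfamily in mouse liver, had 74.6, 179 and 143 TPM in HFD livers, against 1128, 4127 and 238 TPM in LFD livers (-3.05 ± 0.78, adjusted p = 0.017). Cyp2c29, a constitutive androstane receptor target, had 23.4, 97.2 and 162 TPM in HFD livers, against 1046, 1539 and 199 TPM in LFD livers (-3.23 ± 0.84, adjusted p = 0.018). LFD animal 5 was the lowest LFD liver for both and lay just above the HFD livers. Ugt1a1, the bilirubin glucuronidating enzyme, had 4.45, 19.3 and 33.8 TPM in HFD livers, against 135, 138 and 161 TPM in LFD livers (-3.21 ± 0.52, adjusted p = 0.00323), but it shares exons with its neighbours (0.81 of its words occur in another gene) and its level is uncertain. Cyp2d34, a cytochrome of the debrisoquine hydroxylase family, was the rise: it had 732, 525 and 327 TPM in HFD livers, against 9.18, 152 and 0.130 TPM in LFD livers (5.38 ± 1.68, adjusted p = 0.0361). WT livers ranged from 0 to 99.9 TPM for Cyp2d34, the groups did not overlap in livers labelled knockout, and the call held under 14 of 23 alternatives. Among 29 antioxidant and NRF2 targets 0 rose and 6 fell, a share of falls near that of all genes (18.5%). Their median of -0.42 became -0.11 after median-ratio scaling. Falls numbered 1 without HFD animal 1, 3 without LFD animal 5 and 0 in the 6 libraries alone. Prdx1, a peroxide-reducing peroxiredoxin, had 116, 274 and 394 TPM in HFD livers, against 669, 768 and 643 TPM in LFD livers (-1.57 ± 0.34, adjusted p = 0.00906).

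Of 33 tested genes of glycolysis, gluconeogenesis and glycogen 2 rose and 9 fell, where 7.3% of all genes rose and 18.5% fell. The share of rises was thus near that of all genes. Their median of -0.41 became -0.14 after median-ratio scaling, and falls numbered 7 without HFD animal 1 and 2 in the 6 libraries alone. Single members are described next: the gluconeogenic genes Fbp1 and Pck1 were lower in HFD livers, and the glycogen synthase of liver was higher. Gys2, that glycogen synthase, was named after its values were seen. It had 111, 94.1 and 70.4 TPM in HFD livers, against 49.2, 48.4 and 62.9 TPM in LFD livers (0.75 ± 0.21, adjusted p = 0.0225), and its diet change differed from that in WT livers, where it was lower on HFD (1.49 ± 0.29, adjusted p = 0.0188). Fbp1, a gluconeogenic phosphatase, had 69.0, 209.8 and 275 TPM in HFD livers, against 774, 582 and 688 TPM in LFD livers (-2.09 ± 0.43, adjusted p = 0.00719). Pck1, the phosphoenolpyruvate carboxykinase that insulin represses, had 257, 288 and 496 TPM in HFD livers, against 492, 1031 and 1369 TPM in LFD livers (-1.41 ± 0.37, adjusted p = 0.0179). Fbp1 had separate groups, and Pck1 overlapped by HFD animal 6 and LFD animal 2 alone. Pgk1, a glycolytic kinase with a processed copy in the genome (0.55 of its words occur elsewhere, so its level is uncertain), changed by -1.88 ± 0.38 (adjusted p = 0.00719). Rises numbered 1 without HFD animal 1, HFD animal 5 or LFD animal 4.

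Of 28 tested genes of the insulin, leptin and growth hormone axis 3 rose (Inhba, Cish and Igf1) and 5 fell (Igfbp1, Igfbp4, Stat5b, Adipor1 and Fst). These shares were near those of all genes (7.3% and 18.5%), and the median change of -0.18 became 0.05 after median-ratio scaling. Igfbp1, an IGF-binding protein repressed by insulin, had 2.88, 7.42 and 25.6 TPM in HFD livers, against 116, 268 and 132 TPM in LFD livers (-4.08 ± 0.66, adjusted p = 0.00319). Its groups were apart, and the diet change differed from that in WT livers by -3.92 ± 0.94 (adjusted p = 0.0292). Inhba, the activin A subunit, had 4.05, 2.24 and 2.54 TPM in HFD livers, against 0.780, 0.670 and 0.480 TPM in LFD livers (1.24 ± 0.22, adjusted p = 0.00447). Fst, the activin antagonist follistatin, had 0.410, 0.440 and 0.580 TPM in HFD livers, against 6.88, 1.65 and 1.41 TPM in LFD livers (-1.32 ± 0.36, adjusted p = 0.0218). The activin subunit was thus higher and its antagonist lower in every HFD liver than in any LFD liver.

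The other rises of this list, named after their values were seen, lie downstream of growth hormone. Cish, a feedback inhibitor that STAT5 induces, had 10.9, 8.03 and 4.45 TPM in HFD livers, against 0.300, 1.04 and 2.21 TPM in LFD livers (2.04 ± 0.59, adjusted p = 0.0272). Igf1, the growth factor that growth hormone induces in liver, had 1033, 755 and 786 TPM in HFD livers, against 464, 610.0 and 574 TPM in LFD livers (0.64 ± 0.20, adjusted p = 0.0354). Neither overlapped, and they were called under 17 and 15 of the 23 alternatives. Without HFD animal 1 the list had 1 rise and 3 falls, without LFD animal 2 it had 1 rise, without HFD animal 5 or LFD animal 5 it had 3 falls, and without HFD animal 6 it had 8 falls.

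In each of 7 lists of lipid genes more members fell than rose in HFD livers, as did more of all genes (18.5% and 7.3%), and the shares that fell among peroxisomal and cholesterol genes were below that of all genes. Falls and rises numbered 5 and 1 of 19 tested genes for fatty acid uptake and binding (median -0.26, and 0.04 after median-ratio scaling), 6 and 1 of 16 for lipid droplet coat and growth (-0.45), and 7 and 1 of 21 for triglyceride synthesis and lipolysis (-0.63). They numbered 6 and 1 of 21 for de novo lipogenesis (-0.88), 7 and 1 of 24 for mitochondrial fatty acid oxidation and ketogenesis (-0.51), 4 and 1 of 30 for peroxisomal oxidation and PPARA targets (-0.37), and 4 and 0 of 26 for cholesterol synthesis (-1.01). The single rises were Fabp1, Fitm1, Agpat1, Elovl6, Cpt2 and Vnn1 in that order of lists. The small counts of falls were Slc27a4, Slc27a5, Acsl5, Lrp1 and Dbi for uptake and Hsd17b4, Abcd3, Pdk4 and Crot for peroxisomal oxidation and PPARA targets, and they included Pmvk, Tm7sf2 and Hsd17b7 for cholesterol synthesis.

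The falls of lipid genes rested in part on HFD animal 1: without it 3, 3 and 2 fell in the first 3 lists, 1 among peroxisomal and PPARA genes and 0 in cholesterol synthesis. Falls in cholesterol synthesis also numbered 1 without HFD animal 5, LFD animal 2 or LFD animal 5, 8 without HFD animal 6 and 16 without LFD animal 4. Leaving out LFD animal 5 gave 3 falls for triglyceride genes, 3 for mitochondrial oxidation and 2 for peroxisomal and PPARA genes, leaving out HFD animal 5 gave 4 for triglyceride genes, and leaving out LFD animal 2 gave 3 for uptake and 3 for lipogenesis.

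Cd36, the fatty acid translocase, was not among the changes. It had 6.59, 12.0 and 6.69 TPM in HFD livers, against 5.93, 7.29 and 18.4 TPM in LFD livers, with overlapping groups (-0.19 ± 0.36, adjusted p = 0.723; exact 2-sided permutation p = 0.8). LFD animal 5 was the highest, and without it the difference of the means was 1.81 TPM in place of -2.11 TPM. In WT livers Cd36 had 52.8, 58.0 and 39.7 TPM on HFD and 16.1, 14.4 and 10.7 TPM on LFD, and the diet change in livers labelled knockout differed from this by -1.98 ± 0.51 (adjusted p = 0.0344).

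Pdk4, which blocks glucose oxidation and is induced by PPARA in fasting, had 0.260, 0.610 and 1.24 TPM in HFD livers, against 8.81, 15 and 10.4 TPM in LFD livers (-2.87 ± 0.30, adjusted p = 0.000362). Vnn1, a pantetheinase that PPARA also induces, went the other way, with 59.7, 80.5 and 54.2 TPM in HFD livers against 4.58, 26.9 and 27.6 TPM in LFD livers (1.98 ± 0.51, adjusted p = 0.0168). Both had separate groups. Fabp1, the main fatty acid binding protein of liver, had 15878, 17828 and 19063 TPM in HFD livers, against 11046, 10240.2 and 6707 TPM in LFD livers (0.94 ± 0.24, adjusted p = 0.0172). Slc27a4, a fatty acid transport protein, had 1.89, 3.68 and 3.82 TPM in HFD livers, against 8.32, 7.40 and 9.71 TPM in LFD livers (-1.23 ± 0.25, adjusted p = 0.00668).

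Lipid droplet genes split in a similar way. Fitm1, which helps droplets bud from the endoplasmic reticulum, had 92.6, 85.1 and 58.0 TPM in HFD livers, against 33.3, 20.5 and 14.8 TPM in LFD livers (1.78 ± 0.33, adjusted p = 0.00522). Plin2, the main droplet coat protein of hepatocytes, had 71.5, 148 and 170.4 TPM in HFD livers, against 268, 524 and 237 TPM in LFD livers (-1.39 ± 0.37, adjusted p = 0.0194). Every HFD liver was above the LFD livers for Fitm1 and below them for Plin2. Plin3, another coat protein, changed by -1.63 ± 0.25 (adjusted p = 0.00268), and Rab18, a droplet GTPase, by -1.83 ± 0.27 (adjusted p = 0.00209). Pnpla2, the adipose triglyceride lipase, had 11.8, 17.7 and 16.2 TPM in HFD livers, against 20.9, 48.6 and 59.6 TPM in LFD livers (-1.33 ± 0.33, adjusted p = 0.0145).

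Among genes of lipogenesis and its control, Insig2 had 18.4, 25.6 and 27.1 TPM in HFD livers, against 179, 138 and 67.1 TPM in LFD livers (-2.29 ± 0.33, adjusted p = 0.00209). Insig2 is the endoplasmic reticulum anchor that holds back SREBP and that insulin represses in liver, so its fall is not that of a lipogenic enzyme. Me1, the malic enzyme that supplies NADPH, had 11.9, 15 and 20 TPM in HFD livers, against 118, 67.2 and 25.8 TPM in LFD livers (-1.89 ± 0.43, adjusted p = 0.0106). Elovl6, which elongates palmitate, was the rise, with 18.8, 9.05 and 19.3 TPM in HFD livers against 10.9, 1.76 and 3.41 TPM in LFD livers (1.60 ± 0.46, adjusted p = 0.0261). Elovl6 overlapped between diets, since LFD animal 2 was above HFD animal 5, and it was not called without HFD animal 1, HFD animal 6, LFD animal 4 or LFD animal 5, nor in the 6 libraries alone. Fasn, fatty acid synthase, was chosen after its values were seen: it had 26.2, 28.2 and 163 TPM in HFD livers, against 254, 14.3 and 40.8 TPM in LFD livers, and its spread within each diet exceeded the difference (-0.11 ± 0.87, adjusted p = 0.936).

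Clock genes moved both ways. Of 19 tested clock and output genes 4 rose (Per2, Per3, Dbp and Usp2) and 3 fell (Nfil3, Clock and Csnk1d), with a median of 0.03 that was below 0 without HFD animal 6, LFD animal 2 or LFD animal 4, and 2 rises without HFD animal 1, HFD animal 5, LFD animal 2 or LFD animal 4. Per2, a core repressor of the clock, had 10.2, 15.1 and 14.4 TPM in HFD livers, against 1.37, 0.320 and 4.27 TPM in LFD livers (2.46 ± 0.40, adjusted p = 0.00319). Dbp, a direct output of CLOCK and BMAL1, had 76.7, 112 and 110.3 TPM in HFD livers, against 0.930, 4.95 and 64.3 TPM in LFD livers (3.45 ± 0.89, adjusted p = 0.0176). The groups did not overlap, yet LFD animal 5 lay close to the HFD livers. Usp2, a rhythmic deubiquitinase, had 23.8, 19.3 and 10.9 TPM in HFD livers, against 0.19, 1.56 and 12.0 TPM in LFD livers (2.41 ± 0.68, adjusted p = 0.0249), and LFD animal 5 exceeded HFD animal 6. Per3, named after its values were seen, showed the same order, with 3.85, 6.14 and 4.91 TPM in HFD livers against 0.310, 0.370 and 5.20 TPM in LFD livers (1.40 ± 0.47, adjusted p = 0.0468).

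Nfil3, the rhythmic repressor that opposes DBP, had 1.89, 6.72 and 9.72 TPM in HFD livers, against 26.1, 28.2 and 16.3 TPM in LFD livers (-1.95 ± 0.46, adjusted p = 0.0118). Clock, the activator, had 1.15, 1.29 and 1.24 TPM in HFD livers, against 2.49, 2.95 and 2.29 TPM in LFD livers (-0.68 ± 0.18, adjusted p = 0.0187). Csnk1d, a kinase that sets the clock's pace, changed by -1.19 ± 0.23 (adjusted p = 0.00581). None of the 3 overlapped. The time of day at which each liver was taken is not given in the labels, and its part in these values was not tested.

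**Figure D5:**
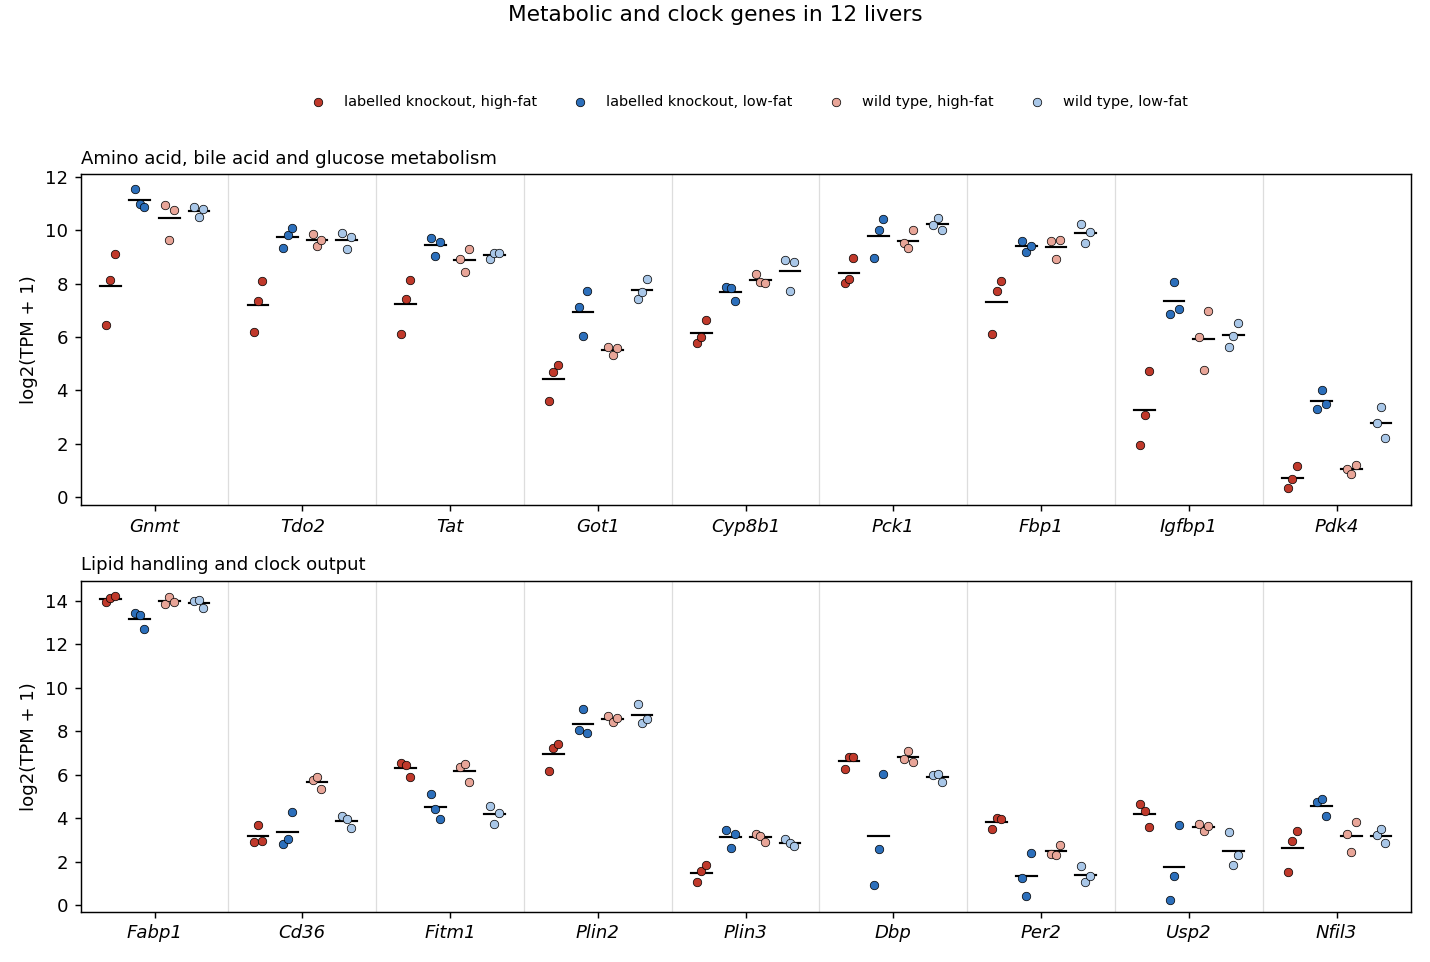
Levels of glucose, lipid and clock genes (log2 of TPM + 1, vertical axes) in single livers, in columns from left to right for HFD and LFD livers labelled knockout and HFD and LFD WT livers; points are animals and black lines the mean of the log2 values of 3 livers. Pdk4 is lower on HFD in both genotypes, and 1 LFD liver labelled knockout, animal 5 (64.3 TPM), lies near the HFD livers for Dbp.

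Several of the largest rises concerned genes with at most 17.1 TPM in the other 9 livers. H2-Q1, a class Ib histocompatibility gene, had 1000.1, 969 and 586 TPM in HFD livers, against 2.84, 17.1 and 2.15 TPM in LFD livers (7.10 ± 0.56, adjusted p = 4.61e-05), and 1.60 to 11.8 TPM in WT livers. Rny3, a small Y RNA bound by the Ro protein, had 67.3, 48.1 and 31.8 TPM in HFD livers and is listed at 0 in all 9 other livers, with an adjusted p of 1.1e-07 on the log2(TPM + 1) scale. As for other genes near 0 outside the HFD livers, those 9 livers add no spread to the estimate that the 4 groups share. The p of Rny3 therefore does not measure the spread between HFD livers alone. Because libraries were made from poly(A) RNA and the strand of counting is not stated, the source of reads assigned to this gene of 102 bases is uncertain. Bicd1, a dynein adaptor, had 8.24, 9.21 and 10 TPM in HFD livers, against 0.0100, 0.0200 and 0.0200 TPM in LFD livers (3.32 ± 0.20, adjusted p = 5.17e-06). Elavl4, a neuronal RNA-binding protein, had 30.7, 23.1 and 24.6 TPM in HFD livers, against 1.77, 0.960 and 0.440 TPM in LFD livers (3.76 ± 0.31, adjusted p = 5.99e-05).

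Fam221b had 14, 18.9 and 8.96 TPM in HFD livers, against 0.0200, 0.160 and 0.08 TPM in LFD livers (3.73 ± 0.26, adjusted p = 1.41e-05). Cdh18, a cadherin of neurons, had 15.6, 13.7 and 5.65 TPM in HFD livers, against 0.4, 0.110 and 0.220 TPM in LFD livers (3.25 ± 0.30, adjusted p = 0.000149). Hsd3b1, a steroid dehydrogenase, had 60.3, 71.3 and 73.0 TPM in HFD livers, against 0, 4.73 and 0 TPM in LFD livers (5.27 ± 0.85, adjusted p = 0.00317). Zeb2, a transcriptional repressor, had 5.93, 7.62 and 4.19 TPM in HFD livers, against 1.18, 1.32 and 0.810 TPM in LFD livers (1.69 ± 0.22, adjusted p = 0.00138). In each of these 4 genes the HFD livers labelled knockout stood above all other livers. Their differences from the WT diet change were 4.05 ± 0.37 for Fam221b, 2.78 ± 0.42 for Cdh18, 6.74 ± 1.21 for Hsd3b1 and 2.08 ± 0.31 for Zeb2 (adjusted p of 0.000321, 0.0123, 0.0173 and 0.0123).

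Some of the largest falls set the HFD livers labelled knockout below all other livers. Mmd, a membrane protein first described in maturing macrophages, had 0.750, 1.08 and 1.42 TPM in HFD livers, against 32.9, 29.0 and 46.8 TPM in LFD livers (-4.14 ± 0.48, adjusted p = 0.000703), and 22.2 to 93.7 TPM in WT livers. Tymp, thymidine phosphorylase, had 2.72, 4.62 and 5.74 TPM in HFD livers, against 48.1, 24.7 and 32.1 TPM in LFD livers (-2.74 ± 0.29, adjusted p = 0.000362). Tfam, the transcription and packaging factor of mitochondrial DNA, had 4.47, 4.94 and 6.05 TPM in HFD livers, against 17.9, 16.4 and 16.6 TPM in LFD livers (-1.55 ± 0.16, adjusted p = 0.000362). All 3 were lower in each HFD liver labelled knockout than in every other liver. Dok6, an adaptor of receptor tyrosine kinases, changed by -3.03 ± 0.55 (adjusted p = 0.00465). Tmem254c and Rdh9 fell by 4.40 and 3.33 on the log2 scale, but 1 and 0.72 of their words occur in other genes, so both are uncertain.

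Mitochondrially encoded genes were higher in HFD livers while nuclear-encoded respiratory chain genes were divided. Of 15 mitochondrially encoded genes 7 rose and 0 fell (median 0.98), with 2 rises without HFD animal 1, LFD animal 2 or LFD animal 5. mt-Nd6, the complex I subunit encoded on the light strand, had 8549, 5069.6 and 4826 TPM in HFD livers, against 2712, 3201 and 2883 TPM in LFD livers (1.02 ± 0.28, adjusted p = 0.0216). mt-Nd3 changed by 2.16 ± 0.38 and mt-Atp6 by 1.54 ± 0.28, with adjusted p of 0.00425 and 0.00447. Nearly all of their words also occur in nuclear copies, so the levels of both are uncertain. Of 77 nuclear-encoded respiratory chain genes 9 rose and 10 fell, with a median of -0.06 that became 0.25 after median-ratio scaling and 20 rises under that scaling. Both counts were at most 5 without HFD animal 1, LFD animal 2 or LFD animal 5, and the rises numbered 3 without HFD animal 5. Of 79 cytosolic ribosomal protein genes 4 rose (Rpl12, Rpl27a, Rpl28 and Rpl37) and 10 fell (median 0.00), with 10 rises after median-ratio scaling, 7 rises without LFD animal 4 and 6 falls without LFD animal 5. Of 36 proteasome subunits 1 rose (the immunoproteasome subunit Psmb10) and 10 fell (median -0.33), with 6 falls without LFD animal 5.

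Of 6 tested nuclear-retained long noncoding RNAs 1, Neat1, rose and 0 fell, with a median of 0.55, and 2 rose without HFD animal 1 or LFD animal 4. Neat1, the scaffold of paraspeckles, had 60, 111 and 196 TPM in HFD livers, against 40.2, 12.3 and 31.1 TPM in LFD livers (2.08 ± 0.48, adjusted p = 0.0113). Malat1, which lies in nuclear speckles, had 39.5, 71.5 and 126 TPM in HFD livers, against 24.3, 22.8 and 38.2 TPM in LFD livers and did not pass (1.33 ± 0.47, adjusted p = 0.056). Both were highest in HFD animal 6.

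The livers were checked for other cell types. Alb, albumin and a defining product of hepatocytes, was at 17756 to 24810.3 TPM in HFD livers and 17654 to 22324 TPM in LFD livers. Kupffer cell and macrophage markers (31 tested) summed to 186, 830 and 498 TPM in HFD livers, against 369, 709.9 and 854 TPM in LFD livers. Of these 31, 0 rose and 5 fell, a share of falls below that of all genes (18.5%). Their median of -0.45 became 0.06 without HFD animal 1 and 0.32 with array weights, which gave 2 rises and 1 fall. None of the 31 passed without HFD animal 1 or LFD animal 5, and 3 and 2 fell without HFD animal 6 and LFD animal 4. Marco, a scavenger receptor, had 1.93, 9.84 and 2.37 TPM in HFD livers, against 11.9, 23.9 and 69.2 TPM in LFD livers (-2.57 ± 0.67, adjusted p = 0.0182). Adgre1, the F4/80 antigen, changed by -1.22 ± 0.36, Cd14, a co-receptor of endotoxin, by -1.36 ± 0.42, Lyz2, a lysozyme, by -1.54 ± 0.52 and Laptm5 by -0.96 ± 0.33 (adjusted p of 0.0293, 0.0333, 0.0467 and 0.0499). Among 14 recruited and lipid-associated macrophage markers 0 rose and 2 fell (Cd9 and Ctsd) and the median of -0.15 became 0.24 without HFD animal 1, with Ctsd, a lysosomal protease that hepatocytes also make, at 41.7, 68.6 and 71.6 TPM in HFD livers, against 140.1, 139 and 169.9 TPM in LFD livers (-1.32 ± 0.23, adjusted p = 0.00363).

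Endothelial markers (31 tested) summed to 238, 249.6 and 273 TPM in HFD livers, against 260.3, 238.5 and 233.7 TPM in LFD livers, and 1 rose (Ramp2) and 0 fell. Extracellular matrix and stellate cell genes (33 tested) had 2 rises (Ecm1 and Thy1) and 5 falls (Col18a1, Reln, Lum, Fn1 and Spon2), with a median of -0.30. Falls numbered 1 without HFD animal 1 or LFD animal 2 and 2 without HFD animal 5. Members passing numbered 0 of 7 for B and plasma cells, 0 of 5 for erythroid cells, 1 of 4 for cholangiocytes (a fall of Epcam), and 0 of 1, 0 of 1 and 0 of 2 for pancreas, skeletal muscle and mesothelium. Of 8 adipose markers 1 rose and 2 fell (Lipe and Pck1, both also made in liver), and Lep was at 0 in all 6 livers. The rise was Cfd, the adipocyte-rich complement factor D, which had 4.18, 19.1 and 2.58 TPM in HFD livers, against 0.240, 0.2 and 0.210 TPM in LFD livers (2.57 ± 0.63, adjusted p = 0.0145). In WT livers Cfd had 178, 245 and 50.7 TPM on HFD and 0.310, 0 and 0.98 TPM on LFD, a larger change than in livers labelled knockout (difference -4.02 ± 0.89, adjusted p = 0.0244).

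Some lists held few changes in the fit as deposited. Rises and falls numbered 3 (Foxa1, Foxa3 and Onecut2) and 1 (Nr5a2) of 23 hepatocyte transcription factors, whose median of -0.01 became 0.28 after median-ratio scaling, 1 (Cdk4) and 4 (Cdk2, Cdkn1a, Cdkn2c and Pcna) of 16 cell cycle genes, 1 (H2-Q1) and 1 (H2-Q10) of 19 MHC genes, and 0 and 1 (Nr4a1) of 19 immediate early genes. None of 22 male-biased, 8 female-biased or 11 hepatocellular carcinoma and fetal liver genes passed. The MHC rises numbered 5 and 6 after median-ratio scaling and quantile normalization, 5 without LFD animal 4 and 2 without HFD animal 1, the MHC falls numbered 3 without HFD animal 5, and the MHC median of 0.14 became -0.15 without HFD animal 5. Transcription factor rises numbered 6 after median-ratio scaling, and their falls 3 without HFD animal 6 or LFD animal 4. Immediate early falls numbered 5 without HFD animal 6, and their median of -0.14 became 0.09 after median-ratio scaling and 0.16 without HFD animal 1. Of the male-biased genes 3 rose without LFD animal 2 and 2 fell without LFD animal 5, and the cell cycle rise was lost without HFD animal 5 or LFD animal 5. In the MHC list the fall was H2-Q10, a secreted class Ib molecule of liver, with 183, 513 and 952 TPM in HFD livers, against 2002, 1396 and 937 TPM in LFD livers (-1.62 ± 0.47, adjusted p = 0.0281) and a small overlap between HFD animal 6 and LFD animal 5.

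Over all 11212 genes the diet change in livers labelled knockout had almost no correlation with that in WT livers. The 2 changes share no library, and across genes, which are not independent replicates, their Pearson r was -0.01 and their Spearman rho -0.06. Of the 2898 called genes 40.4% had the same sign in WT livers, that is 48.5% of the rises and 37.2% of the falls, where 60.4% of all genes were higher on HFD in WT livers. The difference itself passed for 1286 genes (11.5%). That count depended on single WT libraries and was 61 without WT HFD animal 1, 68 without WT LFD animal 8 and 112 without WT HFD animal 6. Of 32 genes whose difference is described here, 19 kept the call under every alternative run, among them Saa1, Saa2, Orm2, H2-Q1, Gbp11, Aldh4a1, Mmd and Tfam. The other 13, Fga, Cd36, Cfd, Syvn1, Igfbp1, Cyp2d34, Hsd3b1, Mx1, Stat2, Gnmt, Tdo2, Tat and Gys2, lost it without WT HFD animal 1, and each of the 13 also under at least 1 further alternative. The call held under 10 of 22 alternatives for Cyp2d34, 11 for Tat and 12 for Stat2. It held under 13 of 21 for Mx1 and 20 of 22 for Hsd3b1. Among the genes described above, Got1, Fitm1, Pdk4, Atf5, Cyp3a11, Cxcl9 and Cxcl10 had the same sign in both genotypes and a difference that did not pass. Fitm1 had 81.7, 89.5 and 49.0 TPM in WT HFD livers, against 22.7, 12.1 and 18.0 TPM in WT LFD livers, a difference of -0.21 ± 0.47 (adjusted p = 0.783). Pdk4 had 1.11, 0.850 and 1.29 TPM in WT HFD livers, against 5.84, 9.30 and 3.61 TPM in WT LFD livers, a difference of -1.15 ± 0.43 (adjusted p = 0.0895).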

How the data were processed

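Liver poly(A) RNA of 12 animals was sequenced from TruSeq libraries, per the labels' protocols. Reads were aligned with HISAT2 and quantified with StringTie on mm10, per the submitters' processing notes, with no version or annotation given in the sources used here. TPM values per gene and library are what the authors deposited, so depth is unknown and no counting interval was computed. Means recomputed from the libraries matched the authors' group-mean columns to within 3.33e-05 TPM, and this tied the library columns to the animals labelled knockout.

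From these values, log2(TPM + 1) of the 11212 genes with at least 1 TPM in 3 of the 6 knockout libraries went into limma 3.58.1 (R 4.3.3) as 4 group means over 12 libraries, with 8 residual degrees of freedom and a trended prior. Tests were 2-sided and p-values were adjusted over all tested genes by the Benjamini-Hochberg method. An adjusted p below 0.05 was called. Fold changes are on that scale and understate those of low genes. The difference between genotypes is the interaction term of that fit. Lix1l and Cd36 were also tested by exact permutation of TPM. The fit was tested on simulated data.

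Named genes were Lix1l, Cd36, the 15 largest called rises and falls (no overlap, mean of 5 TPM or more on either diet), the 8 lowest p each way for the difference, and up to 6 lowest-p members of each of 47 lists, without predicted, clone-based, RIKEN and pseudogene symbols. Not all are printed, and others are said to be chosen after their values were seen. Members of small counts are named without values, also outside the rule. Members, lists, tests and motifs were chosen with earlier results of these data known. A gene with at least 0.5 of its 31-base transcript words in another gene is called uncertain. Gene positions are from GENCODE M21 (GRCm38) and promoters from RefSeq (GRCm38.p6). Alternatives were other pseudocounts, filters, scalings, weights and priors, a fit of the 6 libraries alone, and leaving out each library. Plots used matplotlib 3.10.9 under Python 3.11.15.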

Additional observations from a re-analysis of the deposited data

Results flagged for a closer look

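The diet change differed between livers labelled knockout and WT livers for 337 genes with a higher and 949 genes with a lower change in livers labelled knockout, by a test of the difference itself (limma, adjusted p below 0.05). Values below are the log2 change on HFD in livers labelled knockout minus that in WT livers. Among the highest, it was 8.90 for Cyp2d34, 6.74 for Hsd3b1, 5.80 for H2-Q1, 5.58 for Rny3, 4.05 for Fam221b, 3.27 for Elavl4, 3.26 for the small nucleolar RNA Snora64, 3.20 for Bicd1 and 2.78 for Cdh18. It was 2.36 for Gbp11, 2.08 for Zeb2, 1.83 for Syvn1, 1.49 for Gys2, 1.36 for Mx1 and 1.26 for Stat2. Reads of Snora64 cannot be told from those of other genes that hold its whole sequence. The 13 genes named earlier lost the call under some alternatives, and that of Cyp2d34 held under 10 of 22.

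Among the lowest, the difference was -11.13 for Saa2, -9.71 for Saa1, -7.03 for Orm2, -5.54 for Aldh4a1, -5.06 for Tmem254c, -4.70 for Mmd, -4.02 for Cfd, -3.92 for Igfbp1 and -3.17 for Fga. It was -2.95 for Gnmt, -2.91 for Tymp, -2.55 for Slc13a3, -2.53 for Tdo2, -2.04 for Tat, -1.98 for Cd36, -1.78 for Fam174a and -1.47 for Tfam. Slc13a3, a sodium-dicarboxylate transporter, had 3.62, 6.43 and 3.43 TPM in HFD livers labelled knockout, against 6.15, 5.6 and 11.7 TPM in LFD livers labelled knockout. In WT livers it had 9.64, 9.69 and 7.85 TPM on HFD, against 1.69, 1.76 and 1.64 TPM on LFD. Fam174a had 1.09, 1.66 and 2.39 TPM in HFD livers labelled knockout, against 4.81, 5.37 and 6.21 TPM in LFD livers labelled knockout. In WT livers Fam174a had 6.68, 6.36 and 5.98 TPM on HFD, against 4.31, 3.77 and 4.46 TPM on LFD, and the groups of neither genotype overlapped.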

How the results depend on the processing

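No paired analysis was possible because the diet groups labelled knockout share only animal number 5 as a label, and no mouse. Each diet began at 6 weeks of age and lasted 12 weeks before the liver was taken, so the livers numbered 5 came from different mice. Against 2898 calls (819 rises and 2079 falls), the 6 libraries alone gave 992 (350 and 642), rises numbered 1695 after median-ratio scaling, 1599 after quantile normalization, 1391 without mitochondrial genes and 1524 with array weights (whose estimation stopped short of its tolerance), and falls 1319 with no filter. Leaving out 1 library gave 1686 to 3079 calls, 494 to 810 rises and 1028 to 2352 falls: 1779 calls without HFD animal 1, 1898 without LFD animal 2 and 1686 without LFD animal 5, with the fewest rises (494) without HFD animal 5. Against 1286 differences between genotypes (337 higher and 949 lower), no filter gave 182 (79 and 103) and array weights 4781 (1384 and 3397), with 883, 812 and 637 higher under the 3 scalings in the order above. Leaving out 1 library gave 61 to 2061 differences, 30 to 485 higher and 31 to 1576 lower. The count was 841, 702, 437, 2061 and 403 without HFD animals 1 and 5 and LFD animals 2, 4 and 5, 1424 were lower without HFD animal 6, and 61, 112, 301 and 68 differed without WT HFD animals 1 and 6 and WT LFD animals 7 and 8. The causes were not tested, beyond the fewer samples of such fits. Cd36 and Fasn, which did not pass, changed sign: Cd36 (-0.19) became 0.092, 0.046, 0.010 and 0.17 under the 3 scalings and array weights and -0.48 to 0.27 when 1 library was left out, with a difference of means of -4.42 to 1.81 TPM, highest without LFD animal 5. Fasn (-0.11) became 0.19, 0.15 and 0.105 under the 3 scalings and -1.03 to 1.0 when 1 library was left out, above 0 without HFD animal 1, HFD animal 5 or LFD animal 2. Of 109 genes with values that were called, 67 stayed called in the same direction under all alternatives that could be run for them, and most losses came from fitting the 6 libraries alone (38 genes), no filter (31) and leaving out HFD animal 1 (22) or LFD animal 5 (22). TPM carries no depth, so precision rests on 3 animals a group.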
